A study of Mus musculus with 8 samples.

Results

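The 10 genes described here encode the surface receptors, granule proteases and histamine-making enzyme by which mast cells are recognised, together with neutrophil elastase. They were taken by symbol (Kit, Mcpt4, Tpsb2, Tpsab1, Cma1, Cpa3, Fcer1a, Ms4a2, Hdc and Elane), and all 10 were among the 18691 genes of the series. The tissue was epididymal white fat from mice of the C57BL/6J strain, 16 weeks old, with 4 libraries labelled Mrp4 KO (Mrp4-/-) and 4 labelled wild type (WT). Mrp4, encoded by Abcc4, is an ABC transporter that exports cyclic AMP and prostaglandins, and the comparison asks how its loss changes the adipose transcriptome. Polyadenylated RNA of whole tissue was sequenced, and each gene has an expected count (an estimated number of reads) and an FPKM value (a level scaled to transcript length and sequencing depth). Libraries are numbered 1, 2, 4 and 5 in the group labelled Mrp4 KO and 1, 2, 3 and 4 in WT. The labels name neither the altered allele nor separate mice, so p-values measure the spread between these libraries.

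Mast cells are long-lived tissue cells that store proteases, histamine and proteoglycan in granules and release them when IgE on their surface is crosslinked or when other stimuli reach them. Kit is the receptor for stem cell factor, on which mast cells depend, and is also carried by blood progenitors and melanocytes. In mice the granule proteases differ by site, and those of connective tissue mast cells include the chymases Mcpt4 and Cma1, the tryptase Tpsb2 and the carboxypeptidase Cpa3. Adipose tissue holds mast cells among its resident immune cells.

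Abcc4 itself did not separate the groups, at 3.61 ± 0.244 FPKM in the libraries labelled Mrp4 KO, against 3.52 ± 0.232 FPKM in WT (SD, n = 4 each; exact two-sided permutation p = 0.571 on log2(FPKM + 1); edgeR log2 fold change -0.05, adjusted p = 0.692), so every direction below rests on the labels alone. Library totals were 14064681 to 14700114 expected counts in the libraries labelled Mrp4 KO and 14318943 to 14610104 in WT. Of 18691 genes, 14257 had enough reads to be tested with edgeR's quasi-likelihood test, and a gene is said to have risen, fallen or passed where its adjusted p was under 0.05. The median log2 fold change of all tested genes was -0.003. Adipocyte genes were abundant in every library: the summed level of 10 adipocyte genes, such as Adipoq and Plin1, was 22479 to 26888 FPKM in the libraries labelled Mrp4 KO and 27768 to 31920 FPKM in WT, and of these 10 genes 1 rose, 4 fell and 5 did not pass. Of the 10, Cfd, which fell, differed most in FPKM, averaging 3466 in the libraries labelled Mrp4 KO and 9813 in WT. Whether the adipocyte content of the libraries differed was not tested. The summed level of 12 liver transcripts such as Alb was 713 to 1285 FPKM in the libraries labelled Mrp4 KO and 40.2 to 98.8 FPKM in WT, with all 12 higher and a median log2 fold change of 3.80. Whether that difference bears on the genes below was not tested.

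All 10 genes had reads in all 8 libraries. Of the 10, 1 rose (Kit), 5 fell (Mcpt4, Tpsb2, Cma1, Cpa3 and Elane), 1 did not pass (Hdc), and 3 had too few reads for the test (Tpsab1, Fcer1a and Ms4a2). Among all tested genes 18.3% passed, 10.2% higher and 8.05% lower in the libraries labelled Mrp4 KO, so that 55.9% of the calls were higher, against 74.1% when libraries were scaled by their size alone. Only for Kit and Elane did the levels of the groups not overlap, where ranges lay apart in 16.4% of tested genes on the higher side and 7.08% on the lower. In whole tissue, fewer mast cells and less RNA per mast cell cannot be told apart.

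**Figure D1:**
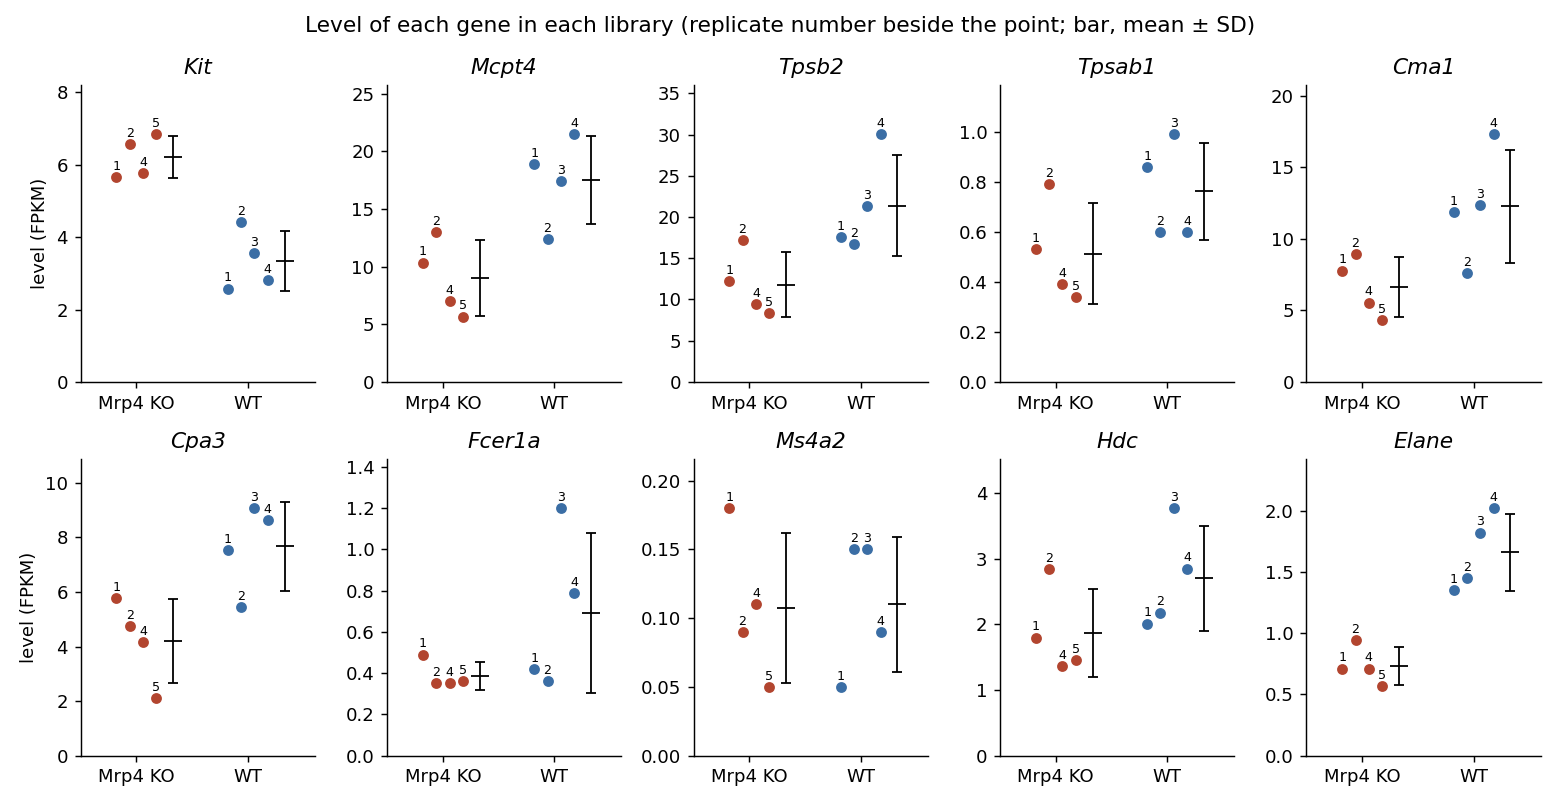
Level of each of the 10 genes in FPKM (vertical axes, each from 0) in the 4 libraries labelled Mrp4 KO (red) and the 4 WT libraries (blue), with the replicate number at each point and the mean ± SD beside them. Kit lies higher and Elane lower in every library labelled Mrp4 KO than in any WT library, while the 4 granule protease genes Mcpt4, Tpsb2, Cma1 and Cpa3 have lower means with ranges that overlap, and Ms4a2 stays between 0.05 and 0.18 FPKM.

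By their mean over all 8 libraries the most abundant members were the granule proteases of connective tissue mast cells, although in the libraries labelled Mrp4 KO the mean of Kit (6.22 FPKM) was above that of Cpa3 (4.2 FPKM). Their RefSeq promoter windows (build GRCm38.p6, from 250 bases before to 50 after the gene start, 5′ to 3′ on the gene's strand) are shown for the 3 of them in the table used, with that of Kit, which moved the other way. Capitals mark GATAA on either strand, the core of the sites bound by GATA factors, of which GATA2 is needed for mast cell development.
Mcpt4 (chr14:56062261-56062560, minus strand): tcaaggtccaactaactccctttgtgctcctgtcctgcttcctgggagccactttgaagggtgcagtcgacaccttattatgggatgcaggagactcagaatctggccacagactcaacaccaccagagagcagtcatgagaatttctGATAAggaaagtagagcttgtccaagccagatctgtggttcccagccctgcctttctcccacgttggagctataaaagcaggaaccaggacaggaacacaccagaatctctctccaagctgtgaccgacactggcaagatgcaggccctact
Cma1 (chr14:55944626-55944925, minus strand): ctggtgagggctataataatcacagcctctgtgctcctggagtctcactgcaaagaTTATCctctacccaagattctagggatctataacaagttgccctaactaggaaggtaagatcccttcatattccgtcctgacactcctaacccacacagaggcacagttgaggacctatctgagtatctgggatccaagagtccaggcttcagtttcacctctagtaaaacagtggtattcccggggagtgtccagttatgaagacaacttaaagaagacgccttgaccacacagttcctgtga
Cpa3 (chr3:20242132-20242431, minus strand): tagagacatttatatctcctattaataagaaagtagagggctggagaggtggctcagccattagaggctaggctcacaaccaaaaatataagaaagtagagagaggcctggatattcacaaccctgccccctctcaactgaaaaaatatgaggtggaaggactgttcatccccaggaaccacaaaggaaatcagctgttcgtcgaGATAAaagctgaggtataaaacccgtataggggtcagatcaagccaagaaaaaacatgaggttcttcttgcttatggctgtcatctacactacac
Kit (chr5:75574737-75575036, plus strand): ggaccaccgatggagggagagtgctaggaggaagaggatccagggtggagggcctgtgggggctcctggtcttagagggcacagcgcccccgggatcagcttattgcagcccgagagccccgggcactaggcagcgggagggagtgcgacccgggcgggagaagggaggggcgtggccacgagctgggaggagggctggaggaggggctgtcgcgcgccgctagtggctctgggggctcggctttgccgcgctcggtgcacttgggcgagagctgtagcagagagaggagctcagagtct
The letters GATAA occur once on either strand in each of the Mcpt4, Cma1 and Cpa3 windows, starting 102, 194 and 45 bases before the gene start, and do not occur in that of Kit. They occur in 25.4% of all 32851 promoter windows of this length. TATAAA, the TATA box letters, begins 32 bases before the start of Mcpt4 and 31 before that of Cpa3, and is found in 13.6% of all windows on either strand; Cpa3 has a second match 242 bases before the start. Of the other members in the table, Fcer1a had GATAA at 92 bases before its start and Ms4a2 at 224, 37 and 10 bases before, while the windows of Hdc and Elane held none. CACGTG or CATGTG, E-box letters to which MITF can bind, occurred in the Fcer1a window only, against 20.4% of all windows. GAGGAA, letters of an ETS site, occurred in the windows of Kit, Fcer1a and Elane, against 28.3% of all windows. These are matches of letters and not shown to be sites of binding.

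Mcpt4, a chymase that cleaves after aromatic residues, stood at 10.35, 13.0, 6.98 and 5.66 FPKM in replicates 1, 2, 4 and 5 labelled Mrp4 KO and at 18.9, 12.4, 17.4 and 21.5 FPKM in WT replicates 1, 2, 3 and 4. The groups met only where replicate 2 labelled Mrp4 KO lay just above WT replicate 2. The log2 fold change was -1.03 ± 0.26 (SE; edgeR adjusted p = 0.0275), with expected counts of 75 to 179 in the libraries labelled Mrp4 KO and 167 to 288 in WT. Cma1, the chymase also called mMCP-5, had 7.79, 8.96, 5.54 and 4.31 FPKM in the libraries labelled Mrp4 KO, against 11.9, 7.62, 12.3 and 17.3 FPKM in WT. It fell with a log2 fold change of -0.95 ± 0.28 (edgeR adjusted p = 0.0444), and here too WT replicate 2 lay within the range of the other group. In the GENCODE M21 transcripts no stretch of 100 bases, the length of 1 read, was shared between Cma1 and another gene, and 1 such stretch of Mcpt4 was shared with Cma2.

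Tpsb2, the tetrameric tryptase also called mMCP-6, had the highest mean level of the members over the 8 libraries. It reached 12.2, 17.2, 9.47 and 8.34 FPKM in the libraries labelled Mrp4 KO and 17.6, 16.7, 21.3 and 30.0 FPKM in WT, and fell with a log2 fold change of -0.92 ± 0.25 (edgeR adjusted p = 0.0355). Replicate 2 labelled Mrp4 KO lay above WT replicate 2. Tpsab1, the neighbouring tryptase gene mMCP-7, is annotated in RefSeq as a transcribed pseudogene in the C57BL/6J genome, and it was low throughout. Its levels were 0.53, 0.79, 0.39 and 0.34 FPKM in the libraries labelled Mrp4 KO and 0.86, 0.60, 0.99 and 0.60 FPKM in WT, from 5 to 12 expected counts in the libraries labelled Mrp4 KO and 9 to 15 in WT. The difference of mean log2(FPKM + 1) was -0.22, KO minus WT (exact two-sided permutation p = 0.114, where 4 against 4 libraries allow no p below 0.0286). The level of Tpsb2 was 21.7 to 24.5 times that of Tpsab1 in the libraries labelled Mrp4 KO and 20.4 to 50.1 times in WT. No stretch of 100 bases was shared between the transcripts of these neighbours, though reads with mismatches could still be divided between them.

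Cpa3, the carboxypeptidase that trims peptides after the chymases have cut, had 5.77, 4.75, 4.16 and 2.12 FPKM in the libraries labelled Mrp4 KO and 7.54, 5.44, 9.07 and 8.64 FPKM in WT. Replicate 5 labelled Mrp4 KO was the lowest of all, and replicate 1 of that group lay above WT replicate 2. Cpa3 fell with a log2 fold change of -0.93 ± 0.27 (edgeR adjusted p = 0.0417). The summed level of Mcpt4, Tpsb2, Cma1 and Cpa3 was 36.1, 43.9, 26.2 and 20.4 FPKM in the libraries labelled Mrp4 KO and 55.9, 42.2, 60.2 and 77.5 FPKM in WT.

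The calls of these 4 genes did not outlast the loss of most libraries, while their direction did not change. Mcpt4, Tpsb2 and Cma1 did not pass without replicate 1 labelled Mrp4 KO (-1.09, -0.93 and -1.03), replicate 4 (-0.92, -0.83 and -0.87) or replicate 5 (-0.87, -0.80 and -0.80) of that group. Nor did they pass without WT replicate 1 (-0.99, -1.01 and -0.97), 3 (-1.04, -0.93 and -0.95) or 4 (-0.91, -0.71 and -0.73). Cpa3 did not pass without replicate 2, 4 or 5 labelled Mrp4 KO (-0.99, -0.93 and -0.72) or WT replicate 1, 3 or 4 (-0.94, -0.85 and -0.86). Each of the 4 passed without WT replicate 2, at -1.18 for Mcpt4, -1.04 for Tpsb2, -1.14 for Cma1 and -1.08 for Cpa3. Cma1 also missed the threshold in 6 and Cpa3 in 2 of 9 other scalings, filters, tools and units, with adjusted p-values up to 0.0576 and 0.0534.

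**Figure D2:**
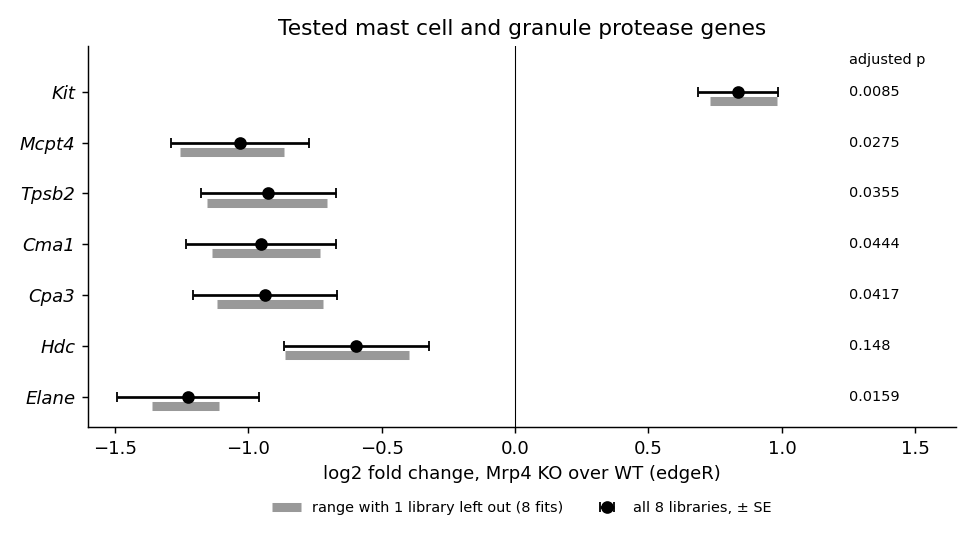
Log2 fold change, Mrp4 KO over WT, of the 7 tested genes from edgeR (horizontal axis; points, all 8 libraries with the SE; grey bars, range over the 8 fits that leave out 1 library; right, adjusted p). Kit lies at 0.84 and Elane at -1.23, the chymase, tryptase and carboxypeptidase genes lie between -1.03 and -0.92, and Hdc, at -0.59, did not pass.

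Kit, the receptor tyrosine kinase for stem cell factor, moved in the opposite direction to the granule proteases. It stood at 5.67, 6.58, 5.78 and 6.84 FPKM in the libraries labelled Mrp4 KO and at 2.58, 4.41, 3.56 and 2.81 FPKM in WT. The groups did not overlap, and expected counts were 425 to 497 in the libraries labelled Mrp4 KO and 194 to 327 in WT. Kit rose with a log2 fold change of 0.84 ± 0.15 (edgeR adjusted p = 0.0085), and passed without any 1 library, at 0.73 to 0.98. The level of Kit was 0.98, 1.39, 1.39 and 3.23 times that of Cpa3 in the libraries labelled Mrp4 KO. In WT it was 0.34, 0.81, 0.39 and 0.33 times. Kitl, which encodes stem cell factor, rose as well, at 18.1 ± 1.51 FPKM in the libraries labelled Mrp4 KO and 13.2 ± 1.0 FPKM in WT (log2 fold change 0.40 ± 0.08, edgeR adjusted p = 0.0102). Beyond Kitl, of the 11 genes of KIT ligand and signalling 1 fell and 9 did not pass. The gene that fell was Stat5a, a transcription factor activated by KIT and by cytokine receptors, at -0.49. Its range without 1 library was -0.59 to -0.38, and it did not pass without replicate 2, 4 or 5 labelled Mrp4 KO, without WT replicate 1 or 4, or with limma on log2(FPKM + 1). Among the 9, the adaptor gene Grb2 had 36.9 FPKM in the libraries labelled Mrp4 KO and 31.4 FPKM in WT (edgeR adjusted p = 0.0592), and the phosphatase gene Ptpn6 had 9.55 FPKM in the libraries labelled Mrp4 KO and 6.63 FPKM in WT (edgeR adjusted p = 0.0515).

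Melanocytes and blood progenitors, among the other cells that can carry Kit, were read from their own markers. Of 7 melanocyte genes, 4 had too few reads for the test, Tyr and Pmel did not pass, and Dct, named after its values were seen, fell to 0.06 FPKM or less in the libraries labelled Mrp4 KO, against 0.44 to 1.44 FPKM in WT. The summed level of the 7 was 3.61 to 4.2 FPKM in the libraries labelled Mrp4 KO and 4.60 to 5.05 FPKM in WT, with Tyrp1, Mlana and Slc45a2 listed at 0 in 4, 6 and 4 of the 8 libraries. Most of the gap between these sums was Dct, which averaged 0.0225 FPKM in the libraries labelled Mrp4 KO and 0.97 FPKM in WT. Tyr averaged 3.14 FPKM in the libraries labelled Mrp4 KO and 3.17 FPKM in WT, and Pmel 0.39 and 0.40 FPKM. Of 7 blood progenitor genes, 5 were tested and Flt3, a receptor of progenitors and dendritic cells, rose to 1.05 FPKM in the libraries labelled Mrp4 KO, against 0.47 FPKM in WT, while 4 did not pass. The log2 fold change of Flt3 was 1.08, or 0.93 to 1.28 without 1 library, and it did not pass without replicate 1 or 4 of either group. Their summed level was 109 to 147 FPKM in the libraries labelled Mrp4 KO and 108 to 112 FPKM in WT, most of it Cd34, at 102 FPKM in the libraries labelled Mrp4 KO and 90.9 FPKM in WT, and none of the 5 tested genes was at 0 in any library. The part of these cells in the level of Kit was not tested. Why Dct differed while Tyr and Pmel did not pass was not tested either.

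The IgE receptor was measured by few reads. Fcer1a, its IgE-binding alpha chain, had 0.49, 0.35, 0.35 and 0.36 FPKM in the libraries labelled Mrp4 KO and 0.42, 0.36, 1.2 and 0.79 FPKM in WT, from 5 to 7 expected counts in the libraries labelled Mrp4 KO and 5 to 17 in WT. Only WT replicates 3 and 4 stood above the others, and the difference of mean log2(FPKM + 1) was -0.26, KO minus WT (exact two-sided permutation p = 0.2). Ms4a2, the signal-amplifying beta chain, had 0.18, 0.09, 0.11 and 0.05 FPKM in the libraries labelled Mrp4 KO and 0.05, 0.15, 0.15 and 0.09 FPKM in WT, from 2 to 7 expected counts in the libraries labelled Mrp4 KO and 2 to 6 in WT. Its groups covered almost the same range (exact two-sided permutation p = 1). No difference was found in either chain.

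Genes that act behind the IgE receptor, and which macrophages and other leukocytes also use, were measured better. Of 13 such genes 4 rose, 0 fell and 9 did not pass, with a median log2 fold change of 0.48. The kinase gene Lyn rose to 19.4 ± 1.12 FPKM in the libraries labelled Mrp4 KO, against 12.1 ± 1.59 FPKM in WT (log2 fold change 0.61 ± 0.09, edgeR adjusted p = 0.00235), and the adaptor gene Lat2 to 7.22 ± 1.6 FPKM in the libraries labelled Mrp4 KO, against 3.17 ± 0.239 FPKM in WT (1.12 ± 0.16, edgeR adjusted p = 0.00276). The kinase gene Fyn rose by 0.48, or 0.40 to 0.56 without 1 library, and did not pass without replicate 1 or 4 of either group. The kinase gene Syk rose by 0.54, or 0.42 to 0.65, but of the fits without 1 library it passed only in that without WT replicate 2, and it did not pass with no filter on low counts. Fcer1g, the gamma chain that IgE and IgG receptors share, had 74.3 to 112 FPKM in the libraries labelled Mrp4 KO and 66.8 to 85.8 FPKM in WT and did not pass (edgeR adjusted p = 0.175). Of 10 macrophage genes 4 rose and 6 did not pass, with a summed level of 1166 to 1727 FPKM in the libraries labelled Mrp4 KO and 1018 to 1230 FPKM in WT and none at 0; their part in the rise of these signalling genes was not tested.

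Hdc, histidine decarboxylase, which makes histamine, had 1.80, 2.84, 1.37 and 1.46 FPKM in the libraries labelled Mrp4 KO and 2.01, 2.18, 3.77 and 2.85 FPKM in WT. Replicate 2 labelled Mrp4 KO lay among the WT libraries and the other 3 below all of them. The log2 fold change was -0.59 ± 0.27 and did not pass (edgeR adjusted p = 0.148). Histamine receptors and the enzymes and carriers that remove histamine were mostly without a call: of 8 genes 4 were tested, of which 0 rose, 1 fell and 3 did not pass. The gene that fell was Slc22a3, an organic cation carrier, at 31.5 FPKM in the libraries labelled Mrp4 KO and 36.0 FPKM in WT. Its log2 fold change was -0.26, or -0.28 to -0.22 without 1 library, and it did not pass without replicate 1, 4 or 5 labelled Mrp4 KO, without WT replicate 1, with library size alone or with limma on FPKM. Hnmt, which methylates histamine, had 16.5 FPKM in the libraries labelled Mrp4 KO and 15.9 FPKM in WT, and the receptor gene Hrh1 had 1.02 FPKM in the libraries labelled Mrp4 KO and 1.03 FPKM in WT.

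Among 14 genes of granule storage and lipid mediators, 12 were tested, and 0 rose, 1 fell and 11 did not pass. Ltc4s, which makes the leukotriene C4 released by mast cells and is also active in macrophages, fell to 135 ± 29.7 FPKM in the libraries labelled Mrp4 KO, against 189 ± 12.9 FPKM in WT. Its log2 fold change was -0.55, or -0.71 to -0.48 without 1 library, and of these fits it passed only in those without replicate 4 labelled Mrp4 KO and without WT replicate 2. Srgn, the proteoglycan core on which granule proteases are stored, had 62 FPKM in the libraries labelled Mrp4 KO and 49.3 FPKM in WT (edgeR adjusted p = 0.0989). Stxbp2, which takes part in granule release, had 13.9 FPKM in the libraries labelled Mrp4 KO and 16.7 FPKM in WT (edgeR adjusted p = 0.0586), and Alox5ap, a helper of leukotriene synthesis, had 55.0 FPKM in the libraries labelled Mrp4 KO and 42.0 FPKM in WT (edgeR adjusted p = 0.119). Of 13 mast cell surface and regulator genes, 8 were tested, and 2 rose, 0 fell and 6 did not pass, with a median log2 fold change of 0.03. Among the 6, Cd63 had 157 FPKM in the libraries labelled Mrp4 KO and 178 FPKM in WT (edgeR adjusted p = 0.0772). The receptor gene Mrgprb1 had 0.49 FPKM in the libraries labelled Mrp4 KO and 0.66 FPKM in WT (edgeR adjusted p = 0.235). Il1rl1, the receptor for IL-33 that mast cells share with type 2 innate lymphoid cells and regulatory T cells, rose to 5.11 FPKM in the libraries labelled Mrp4 KO, against 3.20 FPKM in WT. Its log2 fold change was 0.60, or 0.49 to 0.72 without 1 library, and it did not pass without replicate 1 or 5 labelled Mrp4 KO or WT replicate 1 or 4. The integrin gene Itgb7 rose to 6.94 FPKM in the libraries labelled Mrp4 KO, against 4.06 FPKM in WT. Its log2 fold change was 0.71, or 0.50 to 0.78, and it did not pass without replicate 4 labelled Mrp4 KO or WT replicate 1, 3 or 4. Gata2, the transcription factor named above, had 5.49 ± 0.503 FPKM in the libraries labelled Mrp4 KO and 4.98 ± 0.637 FPKM in WT and did not pass (edgeR adjusted p = 0.644).

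Proteases of other mast cell types and of basophils were low, and Mcpt1 and Mcpt2 were not listed in any library. Mcpt8, a basophil protease, was listed at 0 in 7 of 8 libraries, Mcpt9 in 5 and Cma2 in 3, and Prss34 reached 1.14 FPKM at most. Tpsg1, a membrane-bound tryptase that was named after its values were seen, had too few reads for the test, with 0.06, 0.18, 0.06 and 0.06 FPKM in the libraries labelled Mrp4 KO and 0.35, 0.36, 0.35 and 0.30 FPKM in WT. Its groups did not overlap, but how often ranges lie apart among genes with so few reads was not determined. Of the 12 proteases listed beside the members, 4 were tested, and 2 rose, 1 fell and 1 did not pass. The last was Gzmb, at 0.70 to 0.85 FPKM in the libraries labelled Mrp4 KO and 0.35 to 0.61 FPKM in WT (edgeR adjusted p = 0.149). Its groups did not overlap either, with the libraries labelled Mrp4 KO higher. Ctsc, which activates chymases, neutrophil elastase and other granule proteases by removing a dipeptide, fell to 68.0 ± 7.04 FPKM in the libraries labelled Mrp4 KO, against 91.2 ± 15.3 FPKM in WT. Its log2 fold change was -0.49, or -0.60 to -0.39 without 1 library, of these fits it passed only without WT replicate 2, and it did not pass with limma on FPKM. The lysosomal cathepsin gene Ctss rose (log2 fold change 0.93 ± 0.16, edgeR adjusted p = 0.00738). The cathepsin gene Ctsl rose by 0.44, or 0.36 to 0.52 without 1 library, and passed in these fits only without replicate 1 labelled Mrp4 KO or WT replicate 2. Of 8 basophil genes 3 were tested, Il3ra, the alpha chain of the IL-3 receptor, rose by 0.40 and 2 did not pass. Without 1 library Il3ra ranged from 0.33 to 0.48 and passed only without replicate 5 labelled Mrp4 KO or WT replicate 2, and it did not pass with no filter on low counts.

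**Figure D3:**
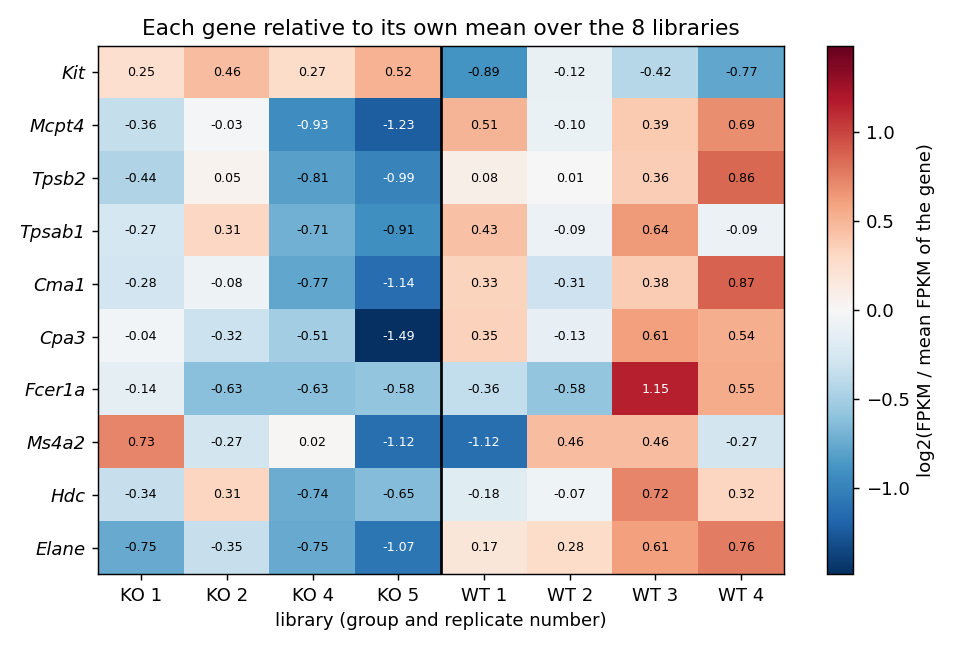
Each gene's level relative to its own mean over the 8 libraries, as log2(FPKM / mean), with the libraries labelled Mrp4 KO left of the line and WT right of it; red is above and blue below the mean. Replicate 5 labelled Mrp4 KO is the lowest library for Mcpt4, Tpsb2, Tpsab1, Cma1, Cpa3 and Elane, and WT replicates 3 and 4 are the highest for 4 genes each.

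Elane, neutrophil elastase, is a granule protease of neutrophils rather than of mast cells. It had 0.71, 0.94, 0.71 and 0.57 FPKM in the libraries labelled Mrp4 KO and 1.35, 1.45, 1.82 and 2.02 FPKM in WT, from 7 to 12 expected counts in the libraries labelled Mrp4 KO and 17 to 25 in WT. No library labelled Mrp4 KO reached the lowest WT library. Whether reads from neighbouring genes add to the few counts of Elane was not tested. Elane fell with a log2 fold change of -1.23 ± 0.26 (edgeR adjusted p = 0.0159), and passed without any 1 library, at -1.36 to -1.11. Of 17 neutrophil genes, Elane included, 9 were tested, and 0 rose, 2 fell and 7 did not pass, with a median log2 fold change of -0.29. The other one that fell was Mmp9, a gelatinase that macrophages also make, at 5.51 ± 2.33 FPKM in the libraries labelled Mrp4 KO and 13.3 ± 2.36 FPKM in WT (-1.34 ± 0.25, edgeR adjusted p = 0.00931). Prtn3, a close relative of Elane stored in the same granules, had 2.89 to 8.85 FPKM in the libraries labelled Mrp4 KO and 2.74 to 9.44 FPKM in WT (edgeR adjusted p = 0.767), and Ctsg, a granule protease of neutrophils and mast cells, was at most 0.15 FPKM and listed at 0 in 3 libraries. S100a9, abundant in neutrophils, had 0.16 to 3.59 FPKM in the libraries labelled Mrp4 KO and 2.26 to 11.99 FPKM in WT (edgeR adjusted p = 0.0718). Its partner S100a8 averaged 6.47 FPKM in the libraries labelled Mrp4 KO and 4.43 FPKM in WT (edgeR adjusted p = 0.483). Lcn2, a siderophore-binding protein of neutrophil granules that adipocytes also make, averaged 15.8 FPKM in the libraries labelled Mrp4 KO and 12.6 FPKM in WT, and Retnlg averaged 3.75 FPKM in the libraries labelled Mrp4 KO and 1.87 FPKM in WT; neither passed. Cxcr2 averaged 0.535 FPKM in the libraries labelled Mrp4 KO and 0.87 FPKM in WT (edgeR adjusted p = 0.101). For Csf3r the means were 2.645 FPKM in the libraries labelled Mrp4 KO and 3.01 FPKM in WT (edgeR adjusted p = 0.320). Camp, Ngp, Mmp8 and Ltf had too few reads for the test. They averaged 0.16, 0.015, 0.0525 and 0.0225 FPKM in the libraries labelled Mrp4 KO, and 0.765, 0.5075, 0.2225 and 0.0625 FPKM in WT. The summed level of the neutrophil genes was 34.9 to 53.7 FPKM in the libraries labelled Mrp4 KO and 44.0 to 66.5 FPKM in WT, and the part of neutrophils in the level of Elane was not tested.

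Inhibitors of these and other proteases were measured beside them. Of 9 such genes 7 were tested, and 3 rose, 0 fell and 4 did not pass, with a median log2 fold change of 0.35. Timp1, an inhibitor of metalloproteinases, rose to 7.23 ± 0.807 FPKM in the libraries labelled Mrp4 KO, against 3.29 ± 0.380 FPKM in WT (1.08 ± 0.15, edgeR adjusted p = 0.00212). Serpinb6a, an intracellular serpin, rose to 109.5 ± 5.23 FPKM in the libraries labelled Mrp4 KO, against 77.8 ± 10.9 FPKM in WT (0.43 ± 0.09, edgeR adjusted p = 0.015). Serpina3n, a secreted serpin, rose by 0.35, or 0.30 to 0.40 without 1 library, and did not pass without replicate 1, 4 or 5 labelled Mrp4 KO or WT replicate 3 or 4.

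**Figure D4:**
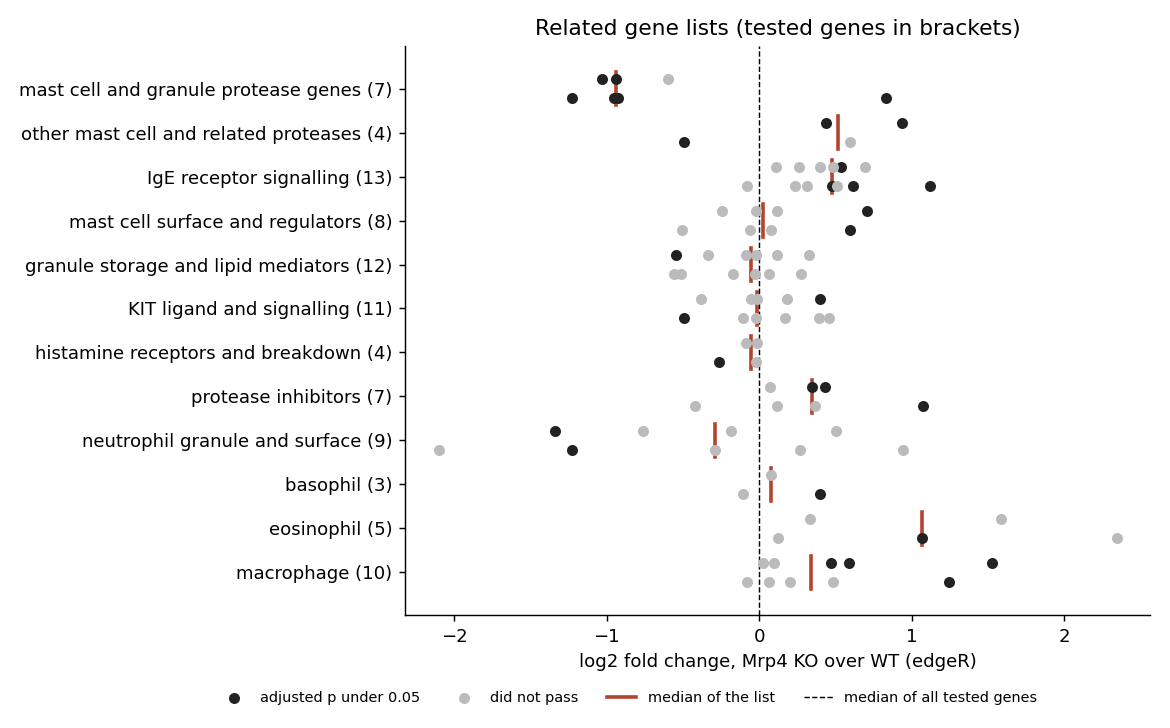
Log2 fold change, Mrp4 KO over WT, of the tested genes of 12 lists, the members at the top (horizontal axis; black, adjusted p under 0.05; grey, did not pass; red line, median of the list; dashed line, median of all tested genes; points are set apart vertically only for legibility). The IgE receptor signalling list has a median of 0.48 and the neutrophil list, which includes Elane, of -0.29, while the KIT signalling, histamine and granule storage lists have medians of -0.01, -0.05 and -0.06.

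Within the groups, replicate 2 was the highest of the libraries labelled Mrp4 KO for Mcpt4, Tpsb2 and Cma1, and replicate 2 was the lowest of the WT libraries for Mcpt4, Tpsb2, Cma1 and Cpa3. The ratio of levels within a library, Mcpt4 over Cma1, was 1.26 to 1.45 in the libraries labelled Mrp4 KO and 1.24 to 1.63 in WT, and that of Tpsb2 over Mcpt4 was 1.18 to 1.47 in the libraries labelled Mrp4 KO and 0.93 to 1.40 in WT. Likeness of 2 profiles was measured as the root mean square difference of log2(FPKM + 1), each centred on its own mean over the 8 libraries, where a lower value is more alike. Among the 7 members with a mean of at least 1 FPKM, the nearest member to Mcpt4, Tpsb2 and Cpa3 was Cma1, at 0.13, 0.15 and 0.21, and the nearest to Kit was Hdc at 0.64, farther than the 0.42 by which Kit itself deviated from its mean. Among the 11838 genes compared, leaving out members, the fatty acid desaturase gene Scd1 was nearest to Mcpt4, Tpsb2 and Cma1 (0.12, 0.15 and 0.17), Nme3 to Cpa3 (0.19), Il18 to Hdc (0.15), Lgals12 to Elane (0.07) and Mxra8 to Kit (0.08), followed for Kit by Col18a1 and Dpt. With 8 libraries in 2 groups, such nearness is a description of these libraries.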

How the data were processed

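Polyadenylated RNA of 8 adipose libraries was sequenced on the BGISEQ-500 with paired reads of 100 bases, per the labels' protocols. The submitters' processing notes name build mm9 and Bowtie2 with no counting tool given in the sources used here. The authors deposited expected counts and FPKM per gene, per the file headers, and 92.0% to 92.6% of the listed expected counts were whole exactly as printed, with no tolerance. A gene not listed in a library was taken as 0. After rounding of the expected counts, edgeR 4.0.16 (under R 4.3.3) gave the tests (filterByExpr, TMM, robust quasi-likelihood test, genotype alone), with Benjamini-Hochberg adjustment over 14257 genes and a threshold of 0.05; 4434 genes were removed. The SE is the log2 fold change divided by the square root of F. Abcc4 and the members without the edgeR test were compared by an exact permutation test (scipy 1.17.1). No use of strand is stated; in GENCODE M21 only Mir7007 overlaps a member (Cpa3). Reads of alike copies can be divided wrongly.

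The members and lists were chosen with earlier results of these data known. The named genes are the members, Abcc4, up to 4 genes of each list with the lowest p and a mean of at least 1 FPKM in either group, and the 3 genes most like each member with a mean of at least 1 FPKM (genes with provisional names left out); not every such gene is printed, and markers of other cells are also given as levels. Fcer1g, Gata2, Prtn3, S100a8, Lcn2, Retnlg, Pmel, Dct and Tpsg1 were named outside this rule, after their values were seen. So were Mrgprb1, Gzmb, Cxcr2, Camp, Ngp, Mmp8 and Ltf. Of 10 members, 8 were found in the RefSeq promoter table. The scripts were tested on simulated data. Alternatives were DESeq2 1.42.0 size factors, scaling by library size only or by upper quartiles, 2 other filters, DESeq2 as the test, limma-voom, limma 3.58.1 on log2(FPKM + 1) or log2(FPKM + 0.1), a block for the replicate number, and each library left out.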

Additional observations from a re-analysis of the deposited data

Results flagged for a closer look

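Libraries that stood far from the other 3 of their group were sought by the gap to the neighbour over the range of the group. Chance alone flags about 1 in 20 groups if values are independent and normally distributed, which was not shown for these FPKM values. Such a library was found in 13 of 132 groups examined. Among the members this held for Fcer1a, at 0.49 FPKM in replicate 1 labelled Mrp4 KO, from 7 expected counts. Each other library of that group had 5, so this flag rests on very few reads. Replicate 1 labelled Mrp4 KO also stood apart for Alox15 (29.9 FPKM), Itgb7 (9.88 FPKM), Mmp9 (8.97 FPKM) and Timp1 (8.42 FPKM), replicate 2 for Tyr (3.45 FPKM), replicate 4 for Ctsl (275 FPKM) and replicate 5 for Fgb (26.5 FPKM). In WT, replicate 2 stood apart for Lep (508 FPKM), Cela1 (8.58 FPKM) and Hrh1 (1.28 FPKM), and replicate 1 for Ctss (41.2 FPKM) and Ptpn6 (7.79 FPKM). No explanation of these was tested.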

How the results depend on the processing

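Directions of the 7 tested members held under every alternative. Without 1 library, 1172 to 3683 genes differed in place of 2606, 1 to 5 members fell in place of 5, 1 rose in each fit, and 26 to 46 of the list genes other than members passed in place of 43. Without WT replicate 1, 3 or 4, or replicate 4 or 5 labelled Mrp4 KO, Elane was the only member that fell. Of the members, 3 fell with library size alone and 3 with limma on log2(FPKM + 0.1); the calls lost were those of Cma1 and Cpa3. With the replicate number as a block, 141 genes differed, 0 members fell, 0 rose and 6 of the list genes passed. For Kit, edgeR's adjusted p was 0.0544 with the block. Replicate 3 occurs only in WT and replicate 5 only in the libraries labelled Mrp4 KO. With the block these libraries therefore do not inform the comparison, so the lower counts also reflect fewer libraries. The labels do not say that the numbers pair libraries, and the deviations of same-numbered libraries correlated at 0.01, -0.07 and -0.13 over genes, so the block has no basis in the design. The difference for Abcc4 in mean log2(FPKM + 1) was 0.03, and -0.00102 (without replicate 4 labelled Mrp4 KO) to 0.0597 without 1 library. Low counts limit Tpsab1, Fcer1a and Ms4a2, whose direction did not change with a pseudocount of 0.1.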

Other observations

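Eosinophil genes, which can move with mast cells in type 2 responses, were uneven among the libraries labelled Mrp4 KO. Of 10 such genes 5 were tested, and Ear2, a ribonuclease gene of eosinophils and macrophages, rose to 54.8 ± 19.1 FPKM in the libraries labelled Mrp4 KO, against 25.1 ± 3.53 FPKM in WT (log2 fold change 1.07 ± 0.23, edgeR adjusted p = 0.0156; not passed without WT replicate 4, at 1.02). The chemokine receptor gene Ccr3 had 2.50, 0.34, 1.2 and 0.44 FPKM in the libraries labelled Mrp4 KO and 0.06, 0.34, 0.38 and 0.04 FPKM in WT (edgeR adjusted p = 0.0628), highest in replicate 1 labelled Mrp4 KO. Alox15 was highest in the same library and did not pass (edgeR adjusted p = 0.901). Of 7 type 2 innate lymphoid genes 4 were tested, of which Il1rl1, described above, rose and 3 did not pass. Of the 9 exocrine pancreas genes only Cela1 had enough reads for the test, and it rose to 15.3 ± 3.60 FPKM in the libraries labelled Mrp4 KO, against 7.21 ± 0.922 FPKM in WT (log2 fold change 1.03 ± 0.18, edgeR adjusted p = 0.00647), while Cpa1, Cpb1, Cela2a and Cela3b were at most 0.09 FPKM and Ctrb1 at most 0.25 FPKM.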
